A study of Homo sapiens with 12 samples.

Results

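The untreated adriamycin-resistant leukaemia line K562/ADR (KA) was compared with the untreated sensitive line K562 (KS) across 18417 genes, on 6 of the 12 arrays of the series, 3 per line. The 6 arrays were chosen by their labels, and no measured value entered the choice. K562 is an established human line from a chronic myeloid leukaemia, and K562/ADR is its subline, kept in 50 nM adriamycin (doxorubicin), while KS medium had no adriamycin stated. The line and the drug in its medium therefore differ together, and their effects cannot be told apart here. Neither group received decitabine, an inhibitor of DNA methylation. The other 6 arrays hold KA and KS given 5 nM decitabine for 72 hours and were used to measure the line difference again. KA and KS are each a single line, and the labels tie no replicate to its own culture, so the p-values measure the spread between these arrays, which may be technical.

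Anthracyclines such as adriamycin enter the nucleus, trap topoisomerase II on broken DNA and generate reactive oxygen. Cells kept in such a drug can survive by pumping it out, by changing its targets or metabolism, and by altering stress, survival and differentiation programmes. P-glycoprotein, the product of ABCB1, is the best known pump of this kind, and K562 itself carries the BCR-ABL kinase and resembles an early erythroid and megakaryocytic cell.

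Values were log2 intensities, and a difference below is untreated KA minus untreated KS on that scale, with its standard error. Genes were called higher or lower at a Benjamini-Hochberg adjusted p under 0.05 in limma over all genes. The lower quartile of the array where it was highest, 3.39, served as the background level: a group mean at or under it was treated as not above background, and a fold against such a mean is given as a lower bound. Arrays of a line correlated at 0.9922 to 0.9952 in KA and at 0.990 to 0.9935 in KS, and untreated KS replicate 3 had the lowest values, 0.990 and 0.9906, with its own group. Because that array stands furthest from its group, counts are also given for calls that held without it. For some genes it also lay towards treated KS. LYZ read 7.77, 7.86 and 9.57 in untreated KS and averaged 11.01 in treated KS. CA1 read 5.24, 5.28 and 7.10 in untreated KS and averaged 8.55 in treated KS. How many genes did so was not counted. In bulk RNA, fewer cells of a type and less RNA per cell cannot be told apart.

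The lines differed in many genes, mostly by small amounts. Of the 18417 genes, 4735 were called (25.7%), 2133 of them higher in KA (11.6%) and 2602 lower (14.1%). The percentages called in gene lists further on are of their measured members and are to be set against 25.7%. The median difference over all genes was 0.015. Without untreated KS replicate 3, 1847 of the higher and 2354 of the lower calls held. All 3 KA arrays lay above all 3 KS arrays for 3389 of the 18417 genes, and below them for 3675. A difference of at least 1 was reached by 257 higher genes (1.40%) and 182 lower genes (0.988%), and a change of at least 2 by 79 and 28. Differences of at least 1 were more often gains in KA, while calls of any size were more often losses. Quantile normalization turned the majority of all calls to gains, with 2610 higher and 2186 lower. Of the 257 higher genes, 38 were not above background in KS, and of the 182 lower genes, 21 were not above background in KA.

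**Figure D1:**
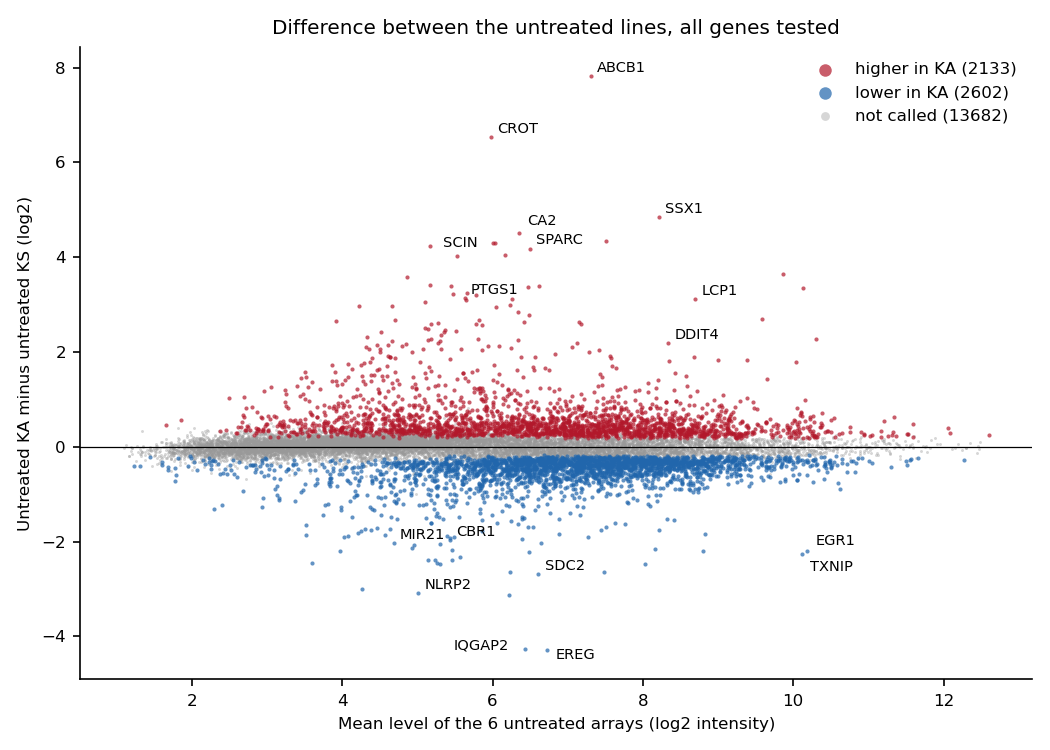
Each point is a gene, with its mean level over the 6 untreated arrays (x axis, log2 intensity) against the difference untreated KA minus untreated KS (y axis, log2). The 2133 genes called higher in KA are red, the 2602 called lower are blue, and ABCB1 at 7.83 stands furthest from 0.

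ABCB1 gave the largest difference on the array. It read 11.22, 11.17 and 11.26 on the KA arrays, against 3.30, 3.24 and 3.63 on the KS arrays, at least 215-fold higher (7.83 ± 0.15, adjusted p = 1.16e-12; 7.95 without untreated KS replicate 3). The groups lay far apart, and KS was not above background. CROT, a neighbouring gene for a peroxisomal carnitine acyltransferase, read 9.18, 9.33 and 9.24 on the KA arrays, against 2.87, 2.67 and 2.59 on the KS arrays, at least 57.9-fold higher. Of 44 measured genes of 7q21 around ABCB1, 30 were higher and none lower (68.2% called). All 30 calls held without untreated KS replicate 3, and the median was 1.23, against 0.015 over all genes. Members beyond the pump include DBF4, the activator of the replication kinase CDC7 (3.20 ± 0.12), SRI, the calcium-binding protein sorcin (2.27 ± 0.07), CDK6, a cyclin D dependent kinase (1.82 ± 0.10), and AKAP9, a centrosomal anchor for protein kinase A (1.87 ± 0.08). The 14 members that were not called included 11 not above background in either line.

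The promoter windows of the 2 genes with the largest gains and the 2 with the largest losses are shown because they differ widely in base composition (RefSeq, GRCh38.p14, a window across the annotated start, gene strand). Capitals mark a CCAAT box (CCAAT), a GC box (GGGCGG) or a TATA box (TATAAA), searched on both strands with overlaps allowed. Of 27305 promoters of that length, 9747 hold a CCAAT box (35.7%), 12174 a GC box (44.6%) and 3264 a TATA box. The windows are chr7:87713246-87713545 (minus strand) for ABCB1, chr7:87345414-87345713 (plus) for CROT, chr4:74364895-74365194 (plus) for EREG and chr5:76403035-76403334 (plus) for IQGAP2.
ABCB1: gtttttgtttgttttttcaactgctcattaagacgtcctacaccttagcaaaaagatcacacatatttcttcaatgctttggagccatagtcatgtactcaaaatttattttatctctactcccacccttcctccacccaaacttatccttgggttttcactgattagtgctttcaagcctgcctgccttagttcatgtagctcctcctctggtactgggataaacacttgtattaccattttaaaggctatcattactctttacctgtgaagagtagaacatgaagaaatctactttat
CROT: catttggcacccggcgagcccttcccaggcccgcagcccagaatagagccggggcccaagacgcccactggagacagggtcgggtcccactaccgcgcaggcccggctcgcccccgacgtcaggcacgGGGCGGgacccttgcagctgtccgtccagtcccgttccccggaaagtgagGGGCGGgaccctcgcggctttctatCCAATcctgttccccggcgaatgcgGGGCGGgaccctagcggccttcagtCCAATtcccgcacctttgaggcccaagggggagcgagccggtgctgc
EREG: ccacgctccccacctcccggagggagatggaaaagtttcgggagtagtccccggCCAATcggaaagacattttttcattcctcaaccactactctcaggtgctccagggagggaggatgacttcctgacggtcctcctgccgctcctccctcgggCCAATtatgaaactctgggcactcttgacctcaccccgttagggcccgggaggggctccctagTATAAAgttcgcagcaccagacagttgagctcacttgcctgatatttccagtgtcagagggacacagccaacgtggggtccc
IQGAP2: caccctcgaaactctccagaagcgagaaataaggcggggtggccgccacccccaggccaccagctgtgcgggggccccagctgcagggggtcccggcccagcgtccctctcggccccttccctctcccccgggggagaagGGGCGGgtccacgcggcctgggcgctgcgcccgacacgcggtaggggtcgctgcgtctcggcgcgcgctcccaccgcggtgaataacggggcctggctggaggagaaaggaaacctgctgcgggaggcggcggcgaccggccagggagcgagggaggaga
The ABCB1 window holds 1 CpG and none of the 3 motifs, and it lies at the outermost start in the table. Other starts of ABCB1 were not used here. The CROT window holds 28 CpGs, 2 CCAAT boxes and 3 GC boxes. The window of EREG, the gene with the largest loss, holds 12 CpGs, 2 CCAAT boxes and 1 TATA box, and that of IQGAP2 holds 32 CpGs and 1 GC box. A match is a match of letters and shows no binding.

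Away from 7q21, the 2 largest gains in KA were SSX1, a cancer-testis antigen, and CA2, a carbonic anhydrase, both given with their lists further on. Other large gains are described by what each gene does, an order that was set after the values were seen and is no test of a theme. SCIN, an actin-severing protein, averaged 8.16 ± 0.09 in KA and 3.86 ± 0.38 in KS (SD, n = 3 each; difference 4.30 ± 0.18). LCP1, plastin 2, which bundles actin in blood cells, read 10.27, 10.24 and 10.24 in KA, against 7.22, 7.15 and 7.02 in KS (3.12 ± 0.07). Genes named by size were required not to overlap between the lines, so their separation is no added support.

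SPARC, a secreted collagen-binding protein, read 8.59, 8.58 and 8.59 in KA, against 4.35, 4.29 and 4.57 in KS, a 18.2-fold difference (4.18 ± 0.12, adjusted p = 9.27e-11). FKBP10, a prolyl isomerase that helps fold collagen, differed by 3.12 ± 0.10, P4HA1, which hydroxylates collagen prolines, by 1.41 ± 0.11, and PLOD2, which hydroxylates collagen lysines and was picked after its values were seen, by 2.58 ± 0.13.

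PTGS1, cyclooxygenase 1, which starts prostaglandin synthesis, read 7.04, 7.24 and 7.31 in KA, against 4.06, 3.79 and 4.33 in KS (3.14 ± 0.12). LPCAT2, which makes platelet-activating factor, differed by 3.38 ± 0.09, and ELOVL7, an elongase of long fatty acids, by 2.96 ± 0.13. SLCO4C1, a carrier of organic anions, was at least 14.8-fold higher in KA, at 7.28 in KA and 3.04, not above background, in KS.

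CD226, an activating receptor of NK cells, T cells and platelets, read 6.75, 6.93 and 6.94 in KA, against 3.28, 2.97 and 4.13 in KS (3.41 ± 0.21; 3.75 without untreated KS replicate 3). IL23R, a receptor subunit for interleukin 23, differed by 3.05 ± 0.19, and ULBP1, a ligand of the NK receptor NKG2D, by 2.79 ± 0.10. MS4A3, a membrane protein of myeloid precursors, differed by 4.04 ± 0.26, and F2RL2, a thrombin receptor, by 4.04 ± 0.10. CD109, a GPI-anchored protein that binds TGF-beta, was at least 4.97-fold higher, at 5.71 in KA and 2.75, not above background, in KS. Untreated KS replicate 3 was the highest KS array for CD226, MS4A3, IL23R and ULBP1, but not for F2RL2 or CD109. Without it MS4A3 differed by 4.47, IL23R by 3.28 and ULBP1 by 2.90.

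GAB1, a docking protein that carries growth factor receptor signals, read 8.42, 8.44 and 8.55 in KA, against 5.85, 5.70 and 5.93 in KS (2.64 ± 0.09). FOXN3, a forkhead repressor, differed by 2.60 ± 0.23. The receptor subunits IL1RAP, IL17RB and LIFR and the transcription factor ETS1 were picked after their values were seen and were higher by 2.43 ± 0.12, 2.24 ± 0.12, 2.08 ± 0.12 and 2.19 ± 0.12.

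**Figure D2:**
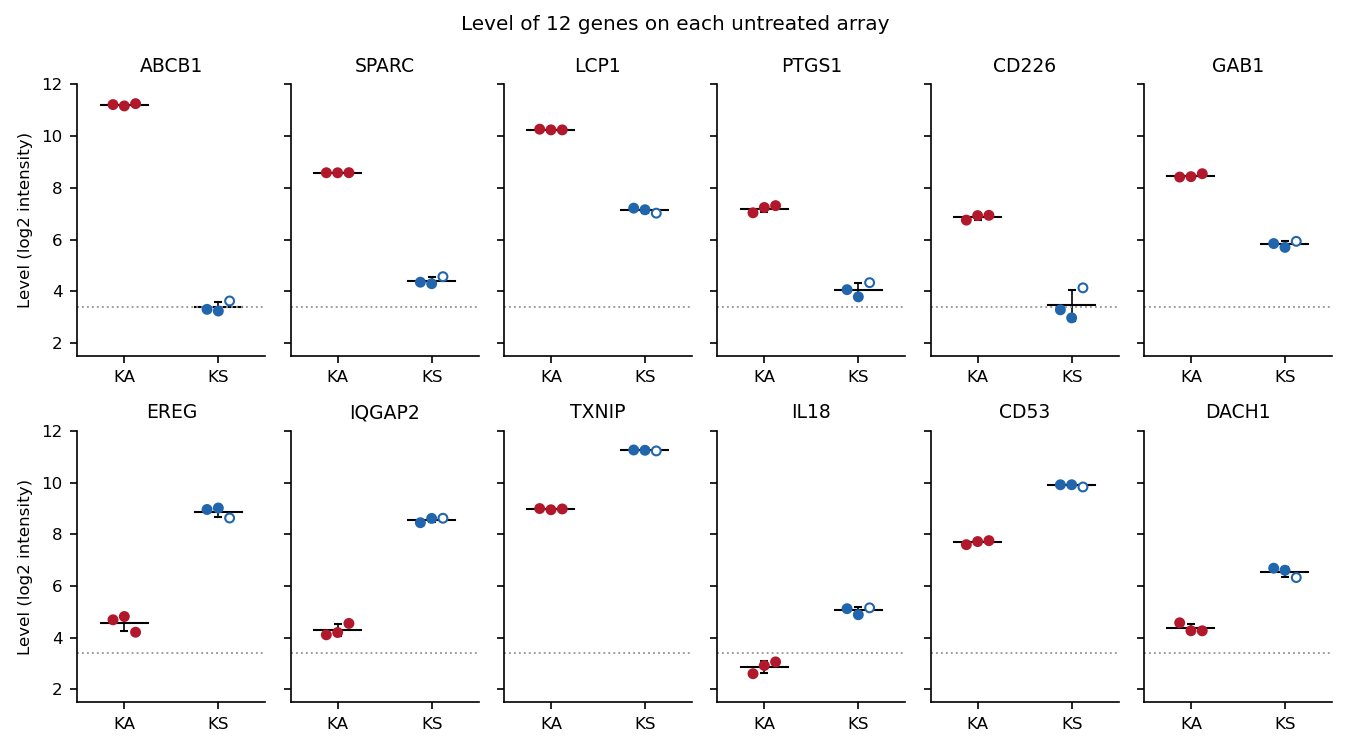
Levels (y axis, log2 intensity) of 12 genes on the 3 KA and 3 KS untreated arrays, with bars for the mean and SD. Untreated KS replicate 3 is an open circle, and the dotted line is the background level of 3.39. The 6 genes of the upper row were higher in KA and the 6 of the lower row were lower. Genes named by size had to be free of overlap, so the separation was set by the choice.

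EREG and IQGAP2 gave the 2 largest losses in KA. The zinc finger genes ZNF730 and ZNF93, NLRP2, SDC2 and SELENOP were also among the large losses and are given with their values further on. EREG encodes epiregulin, which binds receptors of the EGF family, and it read 4.70, 4.82 and 4.22 in KA, against 8.96, 9.02 and 8.63 in KS (-4.29 ± 0.20, adjusted p = 6.83e-09). IQGAP2, a scaffold that binds actin and calmodulin, read 4.12, 4.20 and 4.56 in KA, against 8.45, 8.62 and 8.62 in KS (-4.27 ± 0.11). For both, the lowest KS array was more than 3 log2 units above the highest KA array. COBLL1, a relative of an actin nucleator, differed by -2.48 ± 0.14, and KRT10, a keratin, by -2.47 ± 0.10.

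Other large losses are again described gene by gene. PRKCH, a protein kinase C isoform, differed by -2.40 ± 0.10, RHOH, a GTPase of blood cells, by -2.39 ± 0.11, and SELPLG, the selectin ligand PSGL-1, by -1.95 ± 0.09. CD53, a tetraspanin of leukocytes, read 7.60, 7.72 and 7.76 in KA, against 9.92, 9.92 and 9.83 in KS (-2.20 ± 0.07). DACH1, a transcriptional corepressor, read 4.58, 4.27 and 4.27 in KA, against 6.69, 6.61 and 6.33 in KS (-2.17 ± 0.13). TFPI, the inhibitor that shuts off tissue factor, differed by -1.84 ± 0.11, and NMI, which binds STAT and MYC proteins, by -2.03 ± 0.12.

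IL18, an inflammasome cytokine, read 2.61, 2.93 and 3.07 in KA, against 5.13, 4.89 and 5.16 in KS, and was at least 3.17-fold lower because KA was not above background. IL1R1, the signalling receptor for interleukin 1, differed by -1.93 ± 0.09, and NLRP2, a member of the NLR family, by -3.08 ± 0.11. CASP4, an inflammatory caspase, was at least 3.26-fold lower, at 3.36 in KA, not above background, and 5.14 in KS. In contrast, IL1RAP, the accessory chain that pairs with IL1R1, was among the gains named above. Among 46 genes of the NF-kB pathway and cytokines, 7 were higher and 10 lower (7 and 10 held without untreated KS replicate 3). The share called was 37.0% and the median 0.08. TNFAIP3, the NF-kB inhibitor A20, rose by 1.23 ± 0.07, while NFKB1, the p105 subunit, differed by -0.55 ± 0.08 and NFKBIZ, an inducible cofactor, by -0.68 ± 0.08.

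TXNIP, which binds thioredoxin and limits glucose uptake, averaged 8.98 ± 0.02 in KA and 11.25 ± 0.02 in KS (SD, n = 3 each; difference -2.27 ± 0.06). Its paralogue ARRDC4, picked after its values were seen, differed by -1.63 ± 0.12. The glucose carriers SLC2A1 and SLC2A3 differed the other way, by 0.50 ± 0.07 and 0.52 ± 0.11.

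Of 37 other ABC transporters measured, 5 were higher and 8 lower (35.1% called, against 25.7% of all genes), with a median of 0.04. ABCB4, the phospholipid flippase beside ABCB1, differed by 1.33 ± 0.12. ABCG2, another multidrug pump, read 3.02, 3.43 and 3.17 in KA, against 4.42, 4.34 and 4.48 in KS, so its level was lower in the resistant line (-1.21 ± 0.10, at least 2.01-fold). ABCC1, a pump for conjugated drugs, differed by 0.22 ± 0.07 (adjusted p = 0.0315), and this call was lost without any 1 untreated array other than KS replicate 3, with adjusted p from 0.0562 to 0.107. Among 24 anthracycline targets and metabolising enzymes, 1 was higher and 9 lower (41.7% called; median -0.15). CBR1, the reductase that turns adriamycin into its alcohol, read 4.94, 4.25 and 4.15 in KA, against 6.64, 6.54 and 6.08 in KS (-1.98 ± 0.18), and CBR4 differed by -0.59 ± 0.11. TOP2B differed by -0.60 ± 0.10, and TOP2A, the isoform of dividing cells, was not called (-0.18 ± 0.08, adjusted p = 0.106; 0.0312 with an intensity trend in the variance prior).

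Antioxidant genes moved both ways, 9 higher and 10 lower of 43 (44.2% called, median 0.04). SLC7A11, the cystine carrier, was higher by 0.99 ± 0.13 and GSTM3, a glutathione transferase, by 0.82 ± 0.16. GCLC, which starts glutathione synthesis, differed by -0.46 ± 0.11, TXN, thioredoxin, by -0.45 ± 0.09, PRDX2, a peroxiredoxin, by -0.78 ± 0.08, and SELENOP, a selenium carrier, by -2.65 ± 0.10.

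Erythroid genes were more often higher than lower between the untreated lines. Of 43 erythroid genes, 15 were higher and 2 lower (14 and 1 held without untreated KS replicate 3). The share called was 39.5% and the median 0.19. CA2 and CA1, carbonic anhydrases of red cells, differed by 4.50 ± 0.20 and 2.60 ± 0.35 (4.70 and 3.21 without untreated KS replicate 3). EPB42, a membrane skeleton protein, differed by 1.30 ± 0.24 (1.70 without untreated KS replicate 3). The embryonic globins HBZ and HBE1 differed by 0.62 ± 0.07 and 0.25 ± 0.06. GATA1, the main erythroid transcription factor, read 8.84, 8.93 and 8.92 in KA, against 8.81, 8.82 and 9.05 in KS (0.01 ± 0.08, adjusted p = 0.966), and KLF1 was not called (-0.16 ± 0.08). TAL1, which acts with GATA1, was higher by 0.65 ± 0.09. The transferrin receptor TFRC was not called (-0.25 ± 0.09, adjusted p = 0.0532), but leaving out untreated KS replicate 3 gave a call (-0.32, adjusted p = 0.0176). HBG1 and HBG2 have no cluster of their own and were not analysed here. Between the treated lines, 5 of the 15 higher erythroid genes were called higher. CA1, EPB42, HBZ and HBE1 were not called there (adjusted p from 0.0569 to 0.474).

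The 9 measured markers of K562 identity included 3 that were higher and none lower (33.3% called), and all 9 were above background. Their summed linear intensity ranged from 13511 to 14403 in KA, against 11514 to 12173 in KS. Bright members weigh most in such a sum, among them HBE1 (12.72 in KA and 12.48 in KS) and HBZ (11.66 and 11.03). The median difference of the 9 markers was 0.01, and 6 were not called. Megakaryocyte and platelet genes moved both ways, 7 higher and 5 lower of 31 (38.7% called). TUBB1, the platelet tubulin, was higher by 1.47 ± 0.08 and the collagen receptor GP6 by 1.22 ± 0.10, while MMRN1, multimerin, differed by -1.02 ± 0.13 and the thromboxane receptor TBXA2R by -1.03 ± 0.08. Granulocyte and monocyte genes gave 6 higher and 1 lower of 34 (20.6% called, below the 25.7% of all genes). The monocyte enzyme LYZ differed by -1.20 ± 0.34 (adjusted p = 0.0196). LYZ read 7.05, 7.15 and 7.42 in KA, against 7.77, 7.86 and 9.57 in KS, so untreated KS replicate 3 stood far above the other KS arrays, and without it the difference was -0.61. The adjusted p of LYZ was 0.0658 and 0.0555 without KA replicates 1 and 2, and 0.0762 with the 6 untreated arrays alone.

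Markers of other cell types were mostly not called. The share called was 14.3% for lymphoid, 27.3% for myeloid, 30.0% for epithelial and 14.3% for fibroblast and endothelial markers. Of 14 lymphoid markers, 2 were higher and none lower, CD3D, a T-cell receptor chain (2.28 ± 0.09), and CD22, a B-cell lectin (1.23 ± 0.15), whereas CD3E (-0.12 ± 0.15) and PAX5 (0.24 ± 0.11) were not called, although leaving out KA replicate 3 gave a call for PAX5 (0.34, adjusted p = 0.0435). The lymphoid sum ranged from 506 to 551 in KA, against 328 to 400 in KS. Of 11 myeloid markers, 2 were higher and 1 lower, and their sum ranged from 477 to 486 in KA, against 500 to 1092 in KS. The value of 1092 is untreated KS replicate 3, the array with the high LYZ, and without it the highest KS sum was 509. Of 10 epithelial markers, 2 were higher and 1 lower (sums of 3410 to 3598 in KA and 2950 to 3137 in KS), and of 14 fibroblast and endothelial markers, 1 was higher and 1 lower (358 to 392 in KA and 363 to 375 in KS). The part of other cells in these results was not tested.

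Output genes of the ERK pathway, which feed back on it or answer it within minutes, were more often lower. Of 28 ERK feedback and immediate early genes, 5 were higher and 12 lower (4 and 10 held without untreated KS replicate 3). The share called was 60.7% and the median -0.25. EGR1, an immediate early transcription factor, read 9.06, 9.06 and 9.16 in KA, against 11.31, 11.34 and 11.21 in KS (-2.19 ± 0.25). The feedback inhibitors SPRY2 and SPRY4 differed by -1.47 ± 0.12 and -0.87 ± 0.12, the ETS factor ETV5 by -1.10 ± 0.09, FOS by -1.12 ± 0.17 and CCND1, cyclin D1, by -0.83 ± 0.10. DUSP10, a phosphatase for p38 and JNK, was higher by 1.37 ± 0.12 and JUN by 1.02 ± 0.08. MYC was higher by 0.37 ± 0.07.

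BCR (-0.12 ± 0.08) and ABL1 (-0.01 ± 0.07) were not called. Of 37 genes of BCR-ABL, KIT and JAK-STAT signalling, 7 were higher and 5 lower (32.4% called, median 0.04). PIM1, a kinase induced by STAT5, differed by 0.83 ± 0.09 and SOCS3, a cytokine feedback inhibitor, by 0.52 ± 0.09. KIT, the stem cell factor receptor, read 5.35, 5.50 and 5.43 in KA, against 6.16, 5.82 and 6.61 in KS (-0.76 ± 0.15), and LYN, a SRC-family kinase, differed by -0.36 ± 0.06. Among 18 EGF-family genes, EGF itself was higher by 0.92 ± 0.17, and EGFR was not called (0.14 ± 0.09).

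Hypoxia and glycolysis genes were mostly higher. Of 39 measured, 22 were higher and 2 lower (61.5% called in either direction, against 25.7% of all genes; 20 and 2 held without untreated KS replicate 3), and the median was 0.30. Between the treated lines, 11 of the 22 and 1 of the 2 were called in the same direction. HK2, hexokinase 2, read 9.03, 8.87 and 8.86 in KA, against 8.09, 8.08 and 7.69 in KS (0.97 ± 0.19). NDRG1, a classical hypoxia gene, differed by 1.19 ± 0.11, VEGFA, the angiogenic factor, by 1.07 ± 0.08, PDK1, which keeps pyruvate from the mitochondria, by 0.92 ± 0.08, and LDHA, lactate dehydrogenase, by 0.48 ± 0.10. EPAS1, the hypoxia factor HIF-2 alpha, differed by -0.86 ± 0.08.

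The amino acid response governed by ATF4 also held more gains than losses, with 18 higher and 6 lower of 44 (54.5% called) and a median of 0.23. ATF4 itself was not called (-0.11 ± 0.10), but the mean of its clusters was lower (-0.42, adjusted p = 0.0158), so its clusters disagree. DDIT4, an inhibitor of mTORC1, read 9.47, 9.34 and 9.49 in KA, against 7.31, 7.29 and 7.12 in KS (2.19 ± 0.10). CTH, which makes cysteine, differed by 1.66 ± 0.09, ASNS, asparagine synthetase, by 1.56 ± 0.09, GDF15, a secreted stress signal, by 1.44 ± 0.07, and DDIT3, the factor CHOP, by 1.26 ± 0.12. PHGDH, which starts serine synthesis, differed by -0.39 ± 0.08, and STC2, a secreted glycoprotein, by -0.70 ± 0.11. Chaperones of the endoplasmic reticulum split evenly, 7 higher and 7 lower of 28 (50.0% called). Quantile normalization turns this tie into a majority of gains. HSPA5, the chaperone BiP, was higher by 0.70 ± 0.10 and EDEM1, which sends misfolded proteins to degradation, differed by -0.67 ± 0.09.

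Sterol genes leaned down. Of 26 measured, 2 were higher and 13 lower (2 and 12 held without untreated KS replicate 3). The share called was 57.7% and the median -0.23. HMGCS1 and IDI1, early enzymes of the pathway, differed by -0.67 ± 0.08 and -0.54 ± 0.09, and LSS, which closes the sterol rings, by -0.43 ± 0.07. The 2 higher members were CYP51A1, which lies in the 7q21 run (1.09 ± 0.07), and NPC2, a lysosomal sterol carrier (0.59 ± 0.09). Fatty acid genes gave 13 higher and 4 lower of 44 (38.6% called). EHHADH, a peroxisomal oxidation enzyme, was at least 2.21-fold higher, at 4.58 in KA and 3.28, not above background, in KS, and ACSL1, an acyl-CoA synthetase, differed by -0.95 ± 0.11.

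Lysosome and autophagy genes gave 8 higher and 12 lower of 41 (48.8% called). WIPI1 and GABARAPL1, autophagosome genes, were higher by 1.35 ± 0.11 and 1.16 ± 0.08, and GAA, the lysosomal glucosidase, by 0.84 ± 0.10. CTSC, a protease, differed by -0.69 ± 0.08 and ATP6V0A1, a subunit of the proton pump, by -0.63 ± 0.08.

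Survival genes changed by small amounts. Of 20 BCL2 family genes, 4 were higher and 5 lower (3 and 3 held without untreated KS replicate 3). The share called was 45.0%, and the majority turns to gains under quantile normalization. MCL1 differed by -0.55 ± 0.11, the pore-former BAK1 by -0.50 ± 0.10 and BNIP3, a mitophagy receptor that hypoxia induces, by 0.67 ± 0.09. BCL2L1, which encodes BCL-XL, differed by 0.21 ± 0.07 (adjusted p = 0.0463), a call that was lost when any 1 of the 6 untreated arrays was left out, with adjusted p from 0.0648 to 0.156, and BCL2 was not called (0.12 ± 0.15). Among 25 caspase and death receptor genes, 2 were higher and 4 lower (24.0% called, near the 25.7% of all genes). TNFRSF10B, the TRAIL receptor DR5, was higher by 0.64 ± 0.07 and MLKL, the effector of necroptosis, differed by -1.06 ± 0.10.

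ATM, the kinase activated by double-strand breaks, read 7.01, 7.08 and 7.04 in KA, against 7.93, 8.05 and 8.06 in KS (-0.97 ± 0.09), ATR, its counterpart for stalled forks, differed by -0.87 ± 0.10 and MRE11, a nuclease that works with ATM, by -0.67 ± 0.10. Across 55 repair genes, 8 were higher and 12 lower (36.4% called, median -0.03), and under quantile normalization the counts are equal. FANCI, a Fanconi pathway protein, was higher by 0.72 ± 0.07 and LIG3, a DNA ligase, by 0.57 ± 0.08. Genes listed as p53 targets gave 7 higher and 3 lower of 28 (35.7% called), among them CDKN1A, the CDK inhibitor p21 (0.67 ± 0.08), GADD45A (0.60 ± 0.08) and SESN1 (-0.63 ± 0.11). K562 is a p53-deficient line, and the cause of these differences was not tested.

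Mitosis genes gave 5 higher and 13 lower of 41 (43.9% called, against 25.7% of all genes; median -0.14). Replication genes gave 10 higher and 14 lower of 52 (46.2% called; median -0.02), and under quantile normalization their median is 0.03. CCNB1, cyclin B1, differed by -0.55 ± 0.07, ECT2, which starts cytokinesis, by -0.61 ± 0.09, GINS3, a helicase subunit, by -0.75 ± 0.11, and POLA1, the polymerase that starts DNA synthesis, by -0.56 ± 0.09. TK1, thymidine kinase, was higher by 0.48 ± 0.10. RB1, the retinoblastoma protein, differed by -0.64 ± 0.07.

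In the Wnt pathway, with 4 higher and 5 lower of 51 (17.6%, below the 25.7% of all genes), LEF1, a transcription factor that responds to Wnt, differed by 2.04 ± 0.08, FZD4, a receptor, by -1.16 ± 0.09 and CTNNB1, beta-catenin, by -0.47 ± 0.06; the majority of losses turns to gains under quantile normalization. In the Notch pathway, with 5 higher and 7 lower of 28 (42.9% called), the receptors NOTCH1 and NOTCH2 differed by -0.64 ± 0.07 and -1.01 ± 0.12 and HES1, a target gene, by -1.20 ± 0.08. In the TGF-beta family, with 8 higher and 2 lower of 45 (22.2% called), INHBE, an inhibin subunit, was higher by 1.62 ± 0.12 and BAMBI, a decoy receptor, differed by -1.17 ± 0.07.

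Adhesion genes likewise moved both ways, 10 higher and 7 lower of 48 (35.4% called, median 0.00). CD44, a hyaluronan receptor, was higher by 1.06 ± 0.08, ITGA5, a fibronectin receptor chain, by 0.87 ± 0.07 and ITGA2B, the platelet integrin, by 0.75 ± 0.09. SDC2, a heparan sulfate proteoglycan, differed by -2.69 ± 0.10. Actin regulators gave 11 higher and 12 lower of 52 (44.2% called), and this majority also turns under quantile normalization. GSN, gelsolin, was higher by 0.60 ± 0.12, and VIM, vimentin, and CAPG, a capping protein, differed by -0.45 ± 0.06 and -0.47 ± 0.11.

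Interferon-stimulated genes gave 2 higher and 9 lower of 50 (median -0.08, or -0.01 without untreated KS replicate 3). The other 39 were not called, so the share called was below the 25.7% of all genes. Of the 50, 17 were not above background in either line. IFITM3, which blocks viral entry, differed by -1.90 ± 0.11. CMPK2, a mitochondrial nucleotide kinase, differed by -1.24 ± 0.12, and MX2, a GTPase, was higher by 0.50 ± 0.12.

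Of 33 KRAB zinc finger genes of 19p12, a family of DNA-binding repressors, 2 were higher and 15 lower (51.5% called; median -0.33). ZNF730 read 4.13, 4.74 and 5.10 in KA, against 7.66, 7.77 and 7.93 in KS, ZNF93 differed by -2.63 ± 0.13, and ZNF91, which silences retroelements, by -1.57 ± 0.14. ZNF429, in the same cluster, was higher by 0.67 ± 0.15. Cancer-testis antigens gave 7 higher and 1 lower of 31 (25.8% called, near the 25.7% of all genes). SSX1 was higher by 4.84 ± 0.09, MAGEC2 by 3.40 ± 0.07, and MAGEA1 averaged 7.73 ± 0.25 in KA and 4.73 ± 0.08 in KS (SD, n = 3 each). Both families hold near-identical copies, so the member that was read is uncertain.

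Chromatin regulators moved in both directions. The DNA methyltransferases DNMT1 (-0.10 ± 0.06), DNMT3A (0.28 ± 0.10) and DNMT3B (-0.02 ± 0.08) were not called, but leaving out untreated KS replicate 3 gave a call for DNMT3A (0.38, adjusted p = 0.0105). IDH2, whose wild-type product feeds demethylating enzymes, was higher by 0.97 ± 0.15, and MAT2A, which makes the methyl donor, differed by -0.90 ± 0.09. Of 40 Polycomb and trithorax genes, 8 were higher and 12 lower (50.0% called), with equal counts under quantile normalization. EED, a core subunit of Polycomb complex 2, read 7.39, 7.44 and 7.59 in KA, against 8.79, 8.80 and 8.60 in KS (-1.26 ± 0.09), PHC3, of Polycomb complex 1, differed by -0.71 ± 0.06, and KDM5B, a demethylase of H3K4, was higher by 0.77 ± 0.07. MEIS1, a HOX cofactor, differed by -1.52 ± 0.10, 1 of 3 calls among 32 HOX genes and cofactors (9.38% called).

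Ribosomal proteins gave 3 higher and 10 lower of 50 (26.0% called, against 25.7% of all genes; median -0.07) and oxidative phosphorylation subunits 5 higher and 9 lower of 55 (25.5% called; median -0.07). Proteasome subunits were called more often, 4 higher and 9 lower of 32 (40.6%), with a median of -0.12. The single largest change among them was RPL32, a protein of the large ribosomal subunit (-0.84 ± 0.11).

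**Figure D3:**
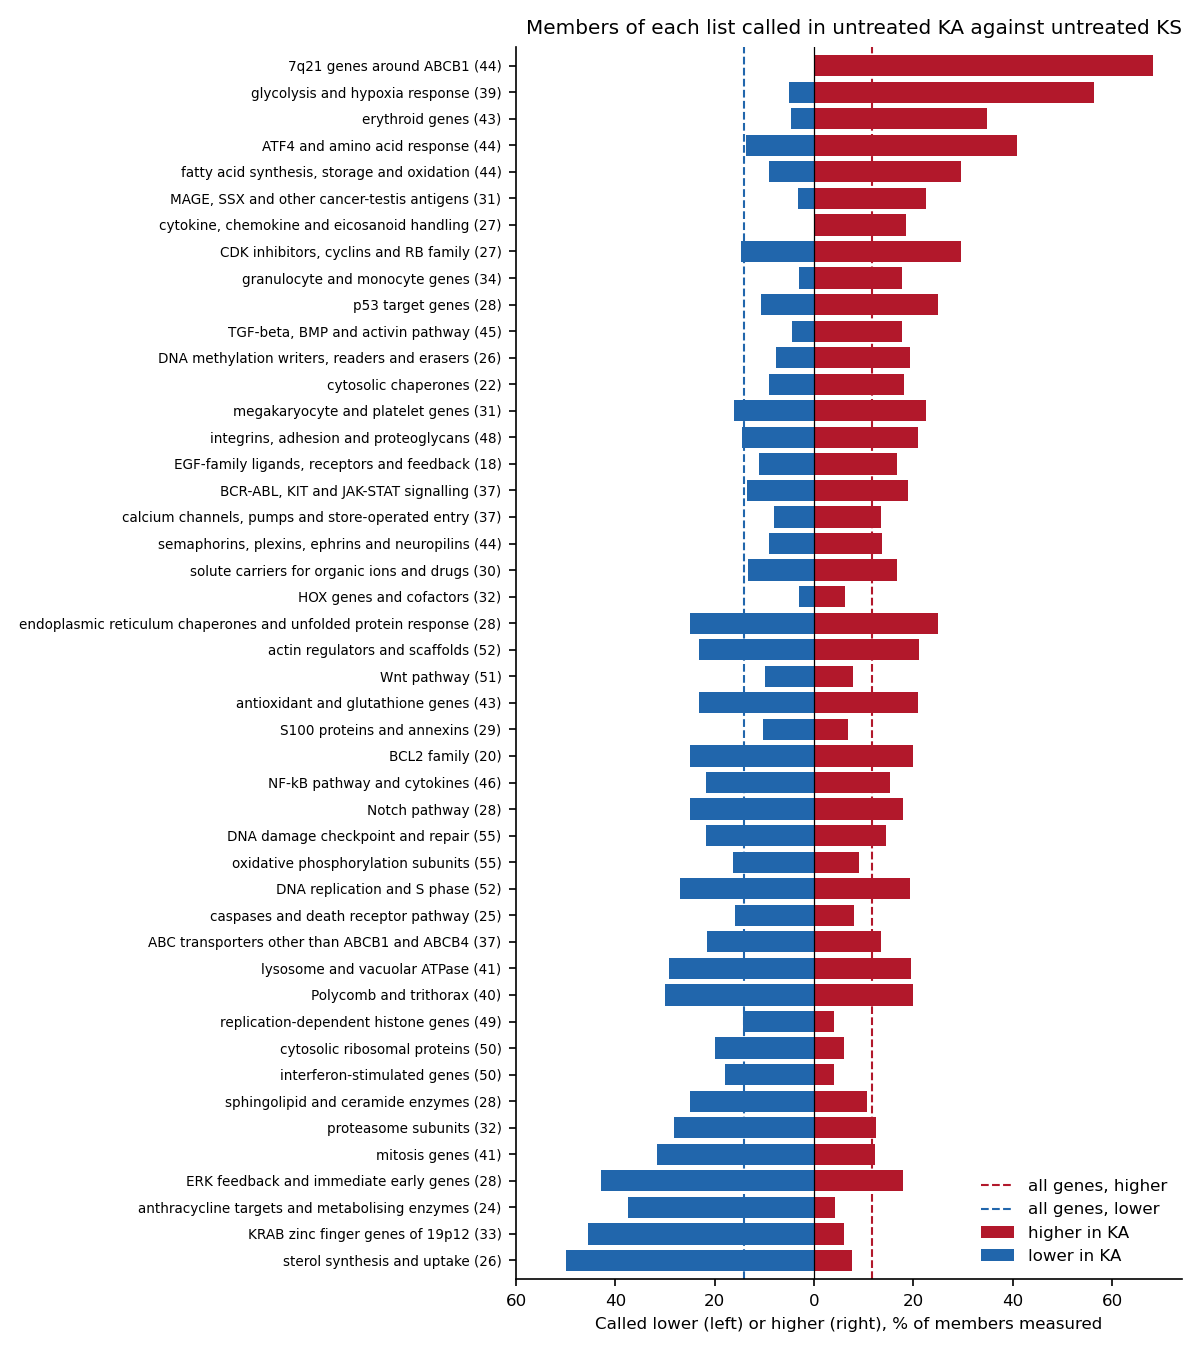
Bars show the percentage of each list's measured members called higher (red, right) or lower (blue, left) in untreated KA than in untreated KS, with the number measured in brackets. Dashed lines mark the percentages over all genes, 11.6 higher and 14.1 lower. The 7q21, glycolysis and hypoxia, and ATF4 lists reach furthest to the right, and the sterol list furthest to the left.

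MicroRNAs are short RNAs that find target mRNAs through their seed, bases 2 to 8. Of 173 microRNA genes measured, 2 were higher (1.16%, against 11.6% of all genes) and 20 lower (11.6%, against 14.1%), with a median of -0.023, and 96 were not above background in either line. The clusters do not separate a mature microRNA from its precursor or host transcript, so the values are those of the gene. The products of 10 of the lower genes are printed, picked after their values were seen, because several share a seed (RefSeq, GRCh38.p14, 5′ to 3′, seed in capitals).
hsa-miR-15b-5p: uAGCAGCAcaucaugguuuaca
hsa-miR-15a-5p: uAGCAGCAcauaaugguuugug
hsa-miR-21-5p: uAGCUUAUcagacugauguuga
hsa-miR-142-3p: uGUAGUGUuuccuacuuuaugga
hsa-let-7g-5p: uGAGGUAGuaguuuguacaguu
hsa-let-7f-5p: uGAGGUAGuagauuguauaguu
hsa-miR-106b-5p: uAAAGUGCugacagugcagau
hsa-miR-93-5p: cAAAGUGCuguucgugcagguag
hsa-miR-25-3p: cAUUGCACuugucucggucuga
hsa-miR-32-5p: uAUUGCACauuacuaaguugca
MIR15B and MIR15A, of the miR-15 family known as repressors of BCL2 and of cell cycle genes, share the seed AGCAGCA and lie on different chromosomes. Another lower gene, beside MIR15B on chromosome 3, yields hsa-miR-16-5p with the same seed (-0.63 ± 0.14, above background in neither line). Of the other printed seeds, GAGGUAG is also that of hsa-let-7d-5p and AUUGCAC that of hsa-miR-92a-3p, both from genes called lower. MIR15B (chr3:160404607-160404628, plus strand) read 2.19, 2.84 and 2.08 in KA, against 4.92, 4.75 and 4.81 in KS, not above background in KA and at least 2.7-fold lower. MIR15A (chr13:50049167-50049188, minus strand) read 3.56, 3.21 and 3.54 in KA, against 5.15, 5.26 and 5.08 in KS (-1.73 ± 0.15), and its host transcript DLEU2 differed by -1.44 ± 0.12. SMC4, the host of MIR15B, was not called (-0.19 ± 0.09).

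MIR21, the source of a microRNA abundant in many tumours (chr17:59841273-59841294, plus strand), read 3.57, 3.63 and 3.80 in KA, against 5.53, 5.75 and 5.82 in KS (-2.03 ± 0.12), and its overlapping gene VMP1 was not called (-0.09 ± 0.10). MIR142, a microRNA gene of blood cells (chr17:58331245-58331267, minus strand), differed by -1.74 ± 0.24. MIRLET7G and MIRLET7F1, which share the let-7 seed GAGGUAG, were not above background in KA. They read 3.31 and 2.60 in KA, against 4.64 and 3.72 in KS, at least 2.37-fold and 1.25-fold lower. MIR106B, MIR93 and MIR25 sit together in MCM7 and differed by -0.86 ± 0.18, -0.84 ± 0.15 and -0.60 ± 0.10, while MCM7 itself was higher by 0.34 ± 0.07. MIR25 and MIR32 share the seed AUUGCAC, and MIR32 read 3.38 in KA, not above background, against 4.87 in KS, at least 2.58-fold lower. MIR17HG, the transcript of another microRNA cluster, differed by -1.70 ± 0.16. Between the treated lines, MIR106B, MIR93, MIR25, MIR32 and MIRLET7F1 were not called (adjusted p from 0.0892 to 0.621), nor was MIR17HG (0.646). The other genes whose products are printed were called lower there too. KS replicate 3 was the lowest KS array for most genes whose products are printed. These were MIR142 (5.76, 5.74 and 5.00), MIRLET7G (5.02, 4.82 and 4.09), MIR32 (5.14, 5.05 and 4.42) and MIR106B (6.11, 5.87 and 5.45). MIR93 (5.09, 5.02 and 4.66), MIR25 (6.96, 6.78 and 6.59), MIRLET7F1 (3.88, 3.79 and 3.49) and MIR15A were the others. For MIR21 KS replicate 3 was the highest KS array, and for MIR15B it lay between the other 2. The part of small RNA recovery was not tested. MIR21 and MIR15B were named by size, and the other microRNA genes and hosts, apart from MCM7, after their values were seen.

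Small nucleolar RNAs, which guide modification of ribosomal RNA, were more often lower than higher. Of 175 measured, 6 were higher and 56 lower (3.43% and 32.0%, against 11.6% and 14.1% of all genes). The median was -0.199 (-0.214 without untreated KS replicate 3). Their median level was 4.99, 5.30 and 5.48 on the KA arrays, against 5.75, 5.76 and 5.48 on the KS arrays, so KA replicate 3 and KS replicate 3 were level. Between the treated lines the median was -0.061. SNORD20 was at least 2.08-fold lower, at 2.58 in KA, not above background, and 4.45 in KS, and SNORA75 differed by -1.84 ± 0.18. The part that recovery of small RNA plays in these values was not tested.

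Chromosome 13 stood out when genes were placed in RefSeq order (GRCh38.p14). Of its 317 genes, 124 were lower in KA (39.1%) and 13 higher (4.1%), against 14.1% and 11.6% over all genes. Among its 251 genes above background, 48.2% were lower and 4.78% higher, with a median of -0.26, against 16.4% lower, 13.5% higher and a median of 0.02 over all 15494 genes above background. The median shift of these genes from the mean of the 6 arrays was -0.164, -0.122 and -0.120 on the KA arrays, against 0.119, 0.140 and 0.105 on the KS arrays. All 3 KA arrays were low and all 3 KS arrays high, replicate 3 of KS included, and without that array the median difference was -0.27. Between the treated lines, on arrays that did not enter this contrast, it was -0.22, and 97 of the 124 lower genes were called lower there too.

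The lower genes ran from TPTE2 to CHAMP1, the first and last of them in gene order. Their differences ranged from -2.17 to -0.20 with a median of -0.53, and 10 of the 124 were lower by at least 1. They include DACH1, MIR15A, MIR17HG, SPRY2, DLEU2 and RB1, all described above, and ATP7B, a copper pump that also exports platinum drugs (-1.25 ± 0.09). LCP1 lies on the same chromosome and was higher by 3.12 ± 0.07. ATP7B, TPTE2 and CHAMP1 were picked after their values were seen. DNA copy number was not measured. Chromosome 3 came next for losses, with 24.9% of 1011 genes lower, and chromosomes 7, 4 and 14 had the most gains, with 20.4%, 19.3% and 19.3% higher.

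**Figure D4:**
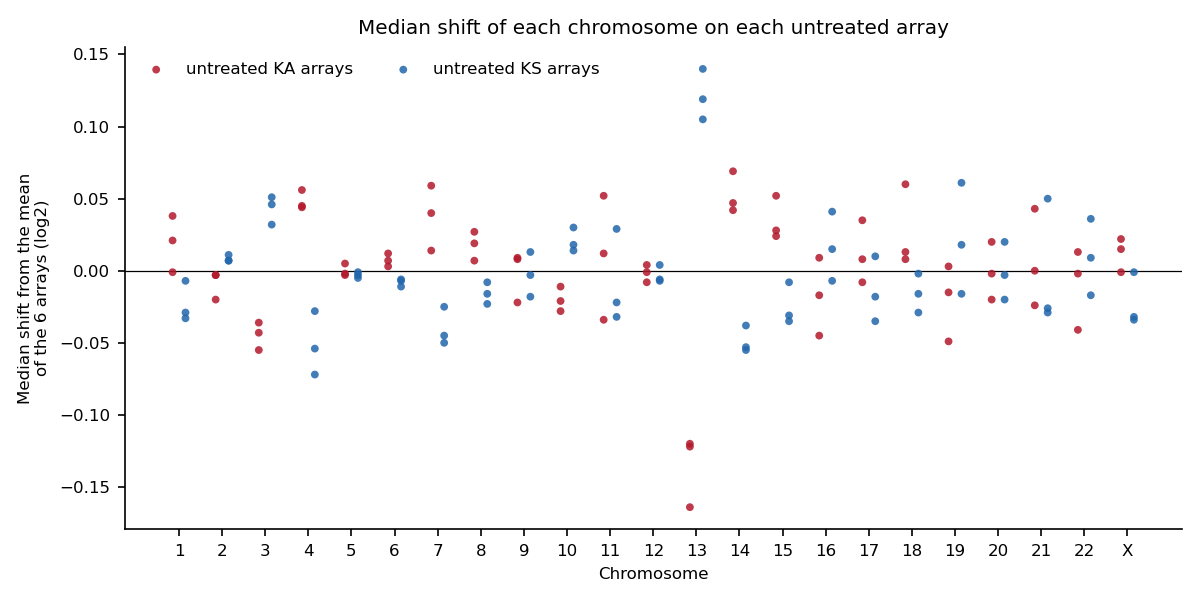
For each chromosome (x axis), points give the median shift of its genes above background from the mean of the 6 untreated arrays (y axis, log2), 1 point per array, with KA in red left of KS in blue. On chromosome 13 the KA arrays lie between -0.164 and -0.120 and the KS arrays between 0.105 and 0.140.

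Shorter runs appeared in windows of 21 neighbouring genes, of which there were 15033, with 1st and 99th percentiles of the window median at -0.418 and 0.366. The highest window, ELAPOR2 to AKAP9 on chromosome 7, had a median of 1.874 and held ABCB1. The next, NRDE2 to BTBD7 on chromosome 14, had a median of 0.522 with 15 genes higher and none lower (0.515 without untreated KS replicate 3, 0.616 between the treated lines). On the low side, COX7A1 to ZNF571 on chromosome 19, a zinc finger cluster, had a median of -0.699 with 14 lower and 1 higher. MED17 to ARHGAP42 on chromosome 11 had a median of -0.672 and DPYD to PRPF38B on chromosome 1 a median of -0.595. Another zinc finger window on chromosome 19 followed (-0.583, 14 lower and none higher), then SIK2 to ZW10 on chromosome 11, with a median of -0.561. The genes that bound these windows, where given, are named by position.

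The treated arrays measured the line difference again in other samples. Between treated KA and treated KS, 2777 genes were higher (15.1%) and 2200 lower (11.9%). Of the 439 genes called by at least 1 between the untreated lines, 432 had the same sign and 407 were called in the same direction between the treated lines. ABCB1 differed by 7.91 ± 0.15 there, CROT by 6.95 ± 0.08, SPARC by 4.09 ± 0.12, LCP1 by 3.36 ± 0.07, EREG by -2.69 ± 0.20 and IQGAP2 by -4.01 ± 0.11. Across these 439 genes, which are not independent replicates, the 2 sets of differences correlated at 0.957, as a description. Calls of any size within lists repeated unevenly. The higher calls repeated for 30 of 30 7q21 genes and 18 of 18 ATF4 response genes. They repeated for 11 of 22 hypoxia and glycolysis genes and 5 of 15 erythroid genes. The lower calls repeated for 6 of 12 ERK output genes and 8 of 13 sterol genes, but for 1 of 6 ATF4 response genes. In the NF-kB list, 5 of 7 higher and 1 of 10 lower calls repeated. Among endoplasmic reticulum chaperones 6 of 7 higher and 1 of 7 lower calls did. In the BCL2 family, 2 of 4 higher and 0 of 5 lower calls repeated. For the other ABC transporters it was 0 of 5 higher and 3 of 8 lower calls.

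The line difference itself changed with decitabine for 1241 genes (6.74%) in limma's interaction contrast, 94 of the 439 among them, 68 towards a smaller difference and 26 towards a larger one. The 439 genes were chosen by the untreated difference, which is a term of this change, so that split is a description. CRYAB, a small heat shock protein, was higher in untreated KA (1.17 ± 0.23, or 1.55 without untreated KS replicate 3) and lower in treated KA (-1.39 ± 0.23). FOS differed by -1.12 ± 0.17 between the untreated lines and by 0.54 ± 0.17 between the treated ones, and EGR1 differed by -0.38 ± 0.25 between the treated lines. The differences of ABCB4 (2.81 ± 0.12), TXNIP (-3.29 ± 0.06) and ARRDC4 (-3.03 ± 0.12) were wider between the treated lines.

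**Figure D5:**
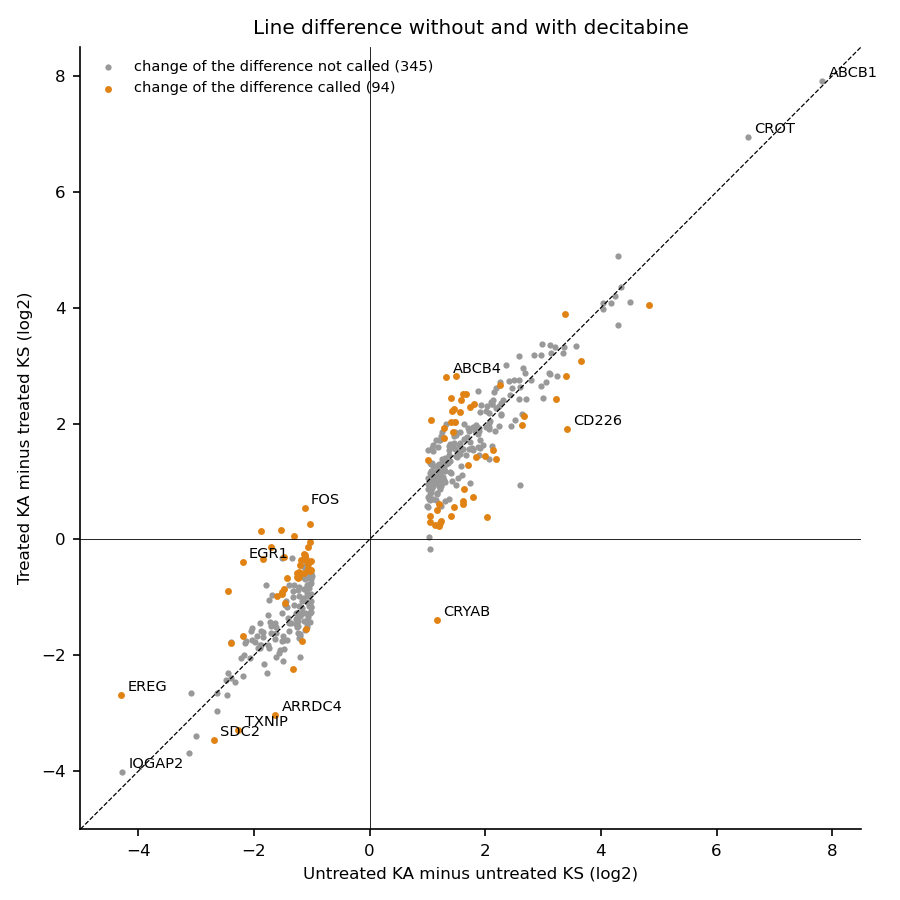
Each point is 1 of the 439 genes called by at least 1 between the untreated lines, with the untreated difference KA minus KS (x axis, log2) against the treated one (y axis, log2). Points on the dashed line differ equally in both, and the 94 orange genes changed with decitabine. CRYAB at 1.17 and -1.39 lies on opposite sides of 0.

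Promoter CpG counts overlapped widely between sets of protein-coding genes. In the RefSeq windows, the median number of CpGs was 21 (quartiles 10 and 31) for the 206 matched genes higher by at least 1. It was 19 (10 and 29) for the 128 lower by at least 1, against 24 (11 and 33) for the 8010 genes that were above background and not called. The 32 matched genes that were higher by at least 1 from a KS level not above background had a median of 16.5, and the 1953 genes neither called nor above background a median of 5. Genes called by under 1 had medians of 25 (higher) and 27 (lower). Windows were matched for 80.0% to 86.7% of the genes in these sets, and no test was made.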

How the data were processed

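Labels describe Trizol RNA, biotin cRNA and Affymetrix arrays. The values are log2 intensities as the authors deposited them, and background correction, summarization and normalization are not given in the sources used here. Of 33297 transcript clusters, 19460 carry 1 symbol in the platform annotation, 1754 several and 12083 none. For the 769 of 18417 genes with several clusters, the brightest was used. Symbols and gene order follow RefSeq (GRCh38.p14), matched for 19429 clusters.

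A limma 3.58.1 model (R 4.3.3) of the 4 group means used all 12 arrays (8 residual and 4.71 prior degrees of freedom), with Benjamini-Hochberg adjusted p. The fit was tested on the untreated contrast in simulated data with 18417 genes, 200 of them changed, and independent noise. It found 62.7% of changes of 0.5 and 96.6% of changes of 1, and 5.63% of calls were false. Many more genes, 4735, were called in the data, so these rates need not hold there.

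The members and gene lists were chosen with earlier results of these data known, and lists were described by counts, not tested. Named genes are the 40 largest called gains and 40 largest called losses whose arrays do not overlap and which hold without untreated KS replicate 3, up to 6 called members of each list in each direction, and a fixed set. Named outside that rule, after their values were seen, were also AKAP9, LDHA, SLC2A1, SLC2A3, ZNF91, ATF4, CD3E, PAX5 and the genes that bound windows. Alternatives were the 6 untreated arrays alone, each left out in turn, a replicate block, 2 scalings, a background filter, the mean of clusters and a trended prior. Figures used matplotlib 3.10.9 in Python 3.11.15.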

Additional observations from a re-analysis of the deposited data

Results flagged for a closer look

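The difference between the lines itself differed with decitabine for 55 of the 215 genes named, at an adjusted p under 0.05 in limma's interaction contrast over all genes. Values are the treated difference minus the untreated one (log2), and the cause was not tested. Most of these genes were named for a large untreated difference, which is also a term of the change, so the directions and the count are a description. Among genes higher in untreated KA, the change was negative for CRYAB (-2.56), CD226 (-1.51), IDH2 (-1.05), P4HA1 (-1.01), CD22 (-0.91), TUBB1 (-0.90) and PDK1 (-0.84). It was also negative for SSX1 (-0.80), GAB1 (-0.67), PIM1 (-0.67), ELAPOR2 (-0.58), MAGEC2 (-0.57) and HBZ (-0.53). The gains in KA were wider between the treated lines for EGF (1.58), ABCB4 (1.48), SLC7A11 (1.15), INHBE (0.90), CTH (0.85), HSPA5 (0.67) and ASNS (0.65). They were wider as well for SLC2A3 (0.65), ITGA2B (0.50), LPCAT2 (0.50) and GDF15 (0.41). Among genes lower in untreated KA, the change was positive for SNORD20 (2.02), EGR1 (1.81), FOS (1.66), EREG (1.60), MIR17HG (1.58), MIR15B (1.57) and SNORA75 (1.51). Positive changes were also found for SPRY4 (1.20), MIR32 (1.18), PHGDH (0.99), TBXA2R (0.98), MIRLET7F1 (0.81), ETV5 (0.76) and ATP6V0A1 (0.75). Further positive changes were those of GINS3 (0.66), NFKBIZ (0.64), NFKB1 (0.62), RHOH (0.61), ACSL1 (0.60), CD53 (0.53) and MAT2A (0.48). The list of positive changes ends with PRPF38B (0.47), NOTCH1 (0.41) and CCNB1 (0.36). The losses in KA were wider between the treated lines for ARRDC4 (-1.40), TXNIP (-1.02), SDC2 (-0.77), FZD4 (-0.59) and ARHGAP42 (-0.44). Not called between the untreated lines, but with a positive change, were ATF4 (0.91) and DNMT3B (0.43).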

How the results depend on the processing

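All alternatives kept the counts of calls within 1.5 times those reported (2133 higher, 2602 lower). The fit on the 6 untreated arrays alone gave 1784 and 2146, leaving out 1 untreated array in turn gave 1763 to 2219 higher and 2030 to 2659 lower, and the variance prior with an intensity trend gave 2277 and 2908. Median centring gave 2055 and 2532, genes above background alone 2231 and 2696 of 15522, and the mean of a gene's clusters 2124 and 2604. Quantile normalization gave 2610 and 2186, which turns the majority to gains (54.4% of calls, against 45.0%). With the replicate block the counts were 1955 and 2385. Replicates of equal number in KA and KS deviated from their group means with correlations of -0.201, -0.025 and -0.288. KA replicate 1 and KS replicate 3 correlated best (0.286). Deviations of 3 arrays from their own mean cancel out, so these values cannot decide whether arrays of equal number were handled together. Chromosome 13 had 105 to 125 lower genes under the alternatives run, counted without regard to whether they were the same genes.

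No named gene changed sign where it was called. Calls of named genes were lost for ABCC1 and BCL2L1 with the replicate block and with the 6 arrays alone, for LYZ with the 6 arrays alone, for BCL2L1 under median centring, and for SIK2 under quantile normalization. Calls were gained for TFRC and DNMT3A with genes above background alone, for TFRC and TOP2A with the intensity trend, for DNMT3A under quantile normalization and for ATF4 with the mean of clusters. Lists with nearly equal counts have no stable majority: BCL2 family genes gave 6 higher and 4 lower under quantile normalization, actin regulators 11 and 8, Wnt genes 5 and 4 (9 and 5 without untreated KS replicate 3), and the 2 higher and 1 lower myeloid markers were not called without KA replicate 1. The cause of these shifts was not tested. Level near background limits the dim genes, for which folds are lower bounds, and 3 arrays per line limit the precision.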

Other observations

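Clusters without exactly 1 gene symbol, which entered no comparison above, leaned towards loss in KA when tested on their own. Of 13837, 350 were higher and 956 lower in untreated KA than in untreated KS. Both shares were smaller than those over the 18417 genes, 11.6% higher and 14.1% lower.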
